A study of Mus musculus with 6 samples.

Results

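Myelin and oligodendrocyte genes were followed through RNA from brain microvessels of TEKCRIF1 mice. The members were 9 gene symbols chosen by name, *Mbp*, *Mog*, *Mag*, *Mobp*, *Cnp*, *Cldn11*, *Mal*, *Ugt8a* and *Olig1*, of 23183 symbols in each library. Levels were given as FPKM, the fragments of a gene scaled by its length and by the depth of the library. All 9 averaged at least 1 FPKM over the 6 libraries and were tested, among 14247 such symbols. The 3 WT mice were TEK-cre, Crif1+/+ and the 3 TEKCRIF1 KO mice were TEK-cre, Crif1 flox/flox, so both groups carried the Cre recombinase, and each mouse gave 1 library. The labels name C57BL/6 for all mice and no treatment, and the age and sex of these mice were not given in the sources used here. Cre was driven by *Tek*, a promoter active in endothelial cells and also in some blood cells. *Crif1* (*Gadd45gip1*) encodes a mitochondrial protein needed for making the oxidative phosphorylation complexes.

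Oligodendrocytes wrap axons of the brain in myelin, a stack of membrane held together on its inner faces by basic proteins and rich in galactolipids. Their precursors mature under bHLH and SOX transcription factors and the myelin factor MYRF, and then switch on the myelin genes together. Oligodendrocytes are not part of the vessel wall, and microvessel preparations can carry brain tissue attached to the vessels. In these bulk libraries, fewer oligodendrocytes and less of a transcript per cell cannot be told apart.

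The promoters of *Mobp*, *Mag* and *Cnp* are shown because these 3 genes had the smallest p-values among the members. The sequences are from RefSeq, build GRCm38.p6, cover the bases upstream of the gene's annotated start within a 250-base window before the RefSeq start, and read 5′ to 3′ on the gene's strand. Capitals mark the SOX core ACAAAG and the MYRF core CTGGNAC on either strand, and no base belonged to both.
Mobp, chr9:120149492-120149706, plus strand: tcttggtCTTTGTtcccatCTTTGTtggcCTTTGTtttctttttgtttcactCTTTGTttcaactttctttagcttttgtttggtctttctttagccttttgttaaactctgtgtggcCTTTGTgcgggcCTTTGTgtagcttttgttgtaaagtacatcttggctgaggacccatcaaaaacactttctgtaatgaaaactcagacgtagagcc
Mag, chr7:30914874-30915113, minus strand: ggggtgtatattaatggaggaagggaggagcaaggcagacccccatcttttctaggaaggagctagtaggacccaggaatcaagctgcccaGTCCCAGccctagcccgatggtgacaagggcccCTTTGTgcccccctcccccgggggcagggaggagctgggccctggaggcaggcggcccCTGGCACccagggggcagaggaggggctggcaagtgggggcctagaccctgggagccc
Cnp, chr11:100574689-100574903, plus strand: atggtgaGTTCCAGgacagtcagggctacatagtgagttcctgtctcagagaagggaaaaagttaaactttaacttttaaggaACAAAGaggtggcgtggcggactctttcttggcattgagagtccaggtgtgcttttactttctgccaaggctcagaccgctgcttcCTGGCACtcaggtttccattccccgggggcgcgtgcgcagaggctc
*Mobp* held 6 SOX cores and no MYRF core, whereas *Mag* and *Cnp* each held 1 SOX core and 2 MYRF cores. Of 32851 RefSeq windows of the same length, 16.5% held a SOX core and 16.1% a MYRF core. The only 1 with 6 SOX cores was that of *Mobp* itself. Of the 7 members whose window was searched, 3 held a SOX core, 3 a MYRF core and 3 the E-box CANNTG. The E-box, the general site of bHLH factors, was held by 66.2% of all windows. *Mbp* was left out of this search by choice, and no window was found for *Olig1*. *Mog* held 1 MYRF core, *Ugt8a* 1 E-box, and *Cldn11* and *Mal* none of the 3 motifs. These matches are a description of letters and not of binding.

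The targeted gene was lower in the KO mice. *Gadd45gip1* was at 18.8, 15.3 and 16.5 FPKM in the WT mice and at 10.8, 7.54 and 10.4 FPKM in the KO mice (log2 fold change −0.77, SE 0.22, limma p = 0.00534, adjusted p = 0.841, exact permutation p = 0.1). Depth estimated from the spacing of the lowest FPKM values was 6400000 to 11700000 fragments per library, so 3 fragments on a 1 kb transcript equalled 0.26 to 0.47 FPKM, a floor for counting error only. Endothelial markers summed to 1314 to 1842 FPKM in WT and 1273 to 1637 FPKM in KO libraries, and all 12 of these markers were detected at a level that was tested. KO 1 and KO 3 stood apart in 5 choroid plexus markers, whose summed level was 8866 and 10667 FPKM there and 2881 to 3341 FPKM in the other 4 libraries. Each library's log2 difference from the mean of all 6 was also related to transcript length across genes, with a Spearman correlation of −0.296, 0.289 and −0.139 in KO 1, KO 2 and KO 3 and of 0.015 to 0.051 in the WT libraries. The same correlation with GC content was 0.084, 0.313 and 0.151 in the WT libraries and −0.137, −0.247 and −0.028 in the KO libraries.

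The members differed in level, most clearly among the highest. *Cldn11* had the highest mean over the 6 libraries at 139 FPKM, followed by *Mbp* at 75.4 FPKM and *Cnp* at 46.6 FPKM, and this order held in 6 of 6 libraries. *Cnp* was also above *Mal* in 6 of 6 libraries. *Mal* (22.7 FPKM), *Mag* (19.8 FPKM) and *Olig1* (18.6 FPKM) were not separable, because *Mal* exceeded *Mag* in only 3 of 6 libraries and the mean log2 difference of *Mag* to *Olig1* was 0.01 with an SD of 0.68. *Mobp* (11.5 FPKM) was below *Olig1* in 5 of 6 libraries, and *Mog* (4.25 FPKM) and *Ugt8a* (2.64 FPKM) were lowest, with *Mog* above *Ugt8a* in 4 of 6 libraries. Among all 23183 symbols ranked by mean FPKM, *Cldn11* was at place 425, *Mbp* at 835 and *Ugt8a* at 12168.

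**Figure D1:**
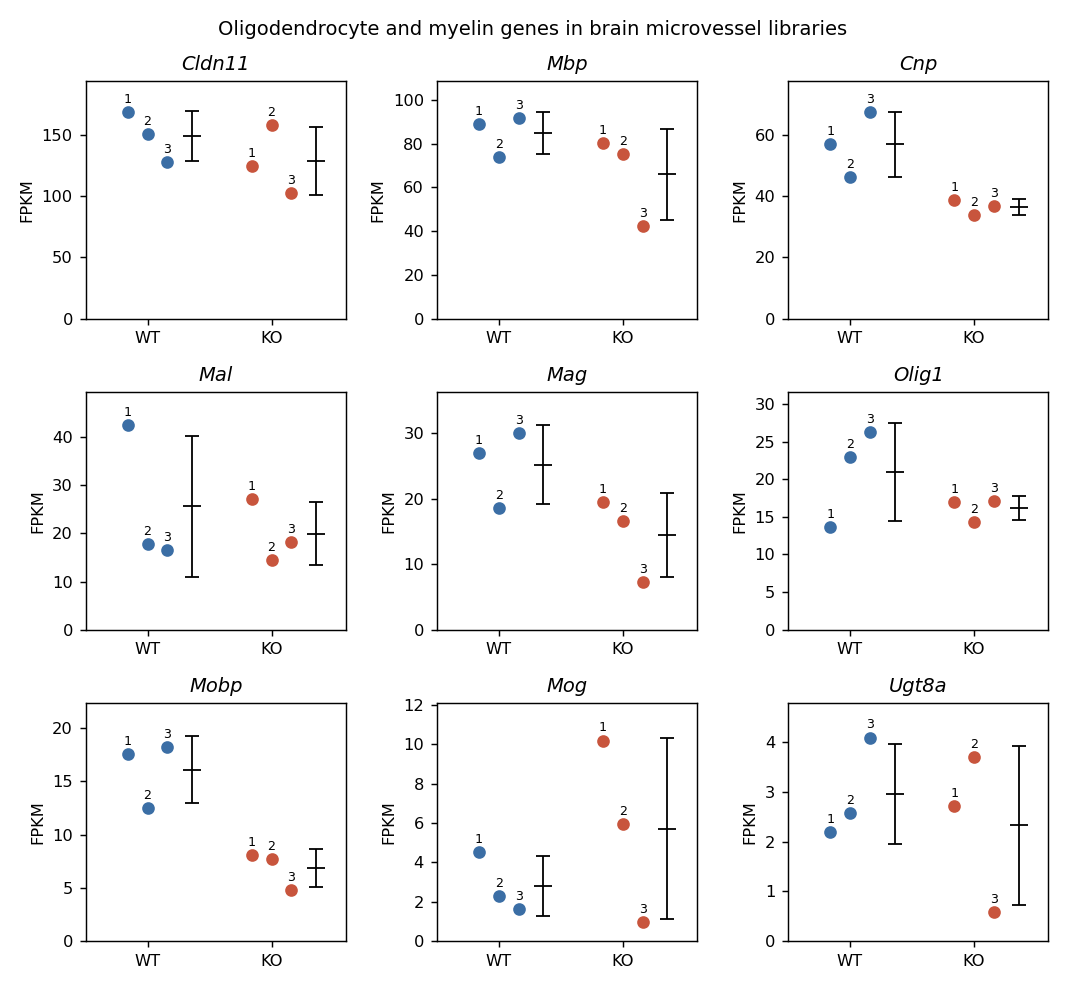
FPKM of the 9 members on linear axes that start at 0, 1 panel per gene, with WT (blue) and KO (red) points numbered by replicate and, beside each group, a bar for the mean ± SD (n = 3). The KO points of *Mobp* and *Cnp* lie below all WT points, and the groups overlap for the other 7 members.

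No member passed after adjustment, and none of the 14247 genes did (0%, limma with Benjamini-Hochberg adjustment, smallest adjusted p = 0.841). At an unadjusted limma p under 0.05, 3 of 9 members were called, *Mobp*, *Mag* and *Cnp*, all lower in KO mice. The background at this threshold was 5.88% of all genes in either direction, 3.11% lower and 2.77% higher in KO mice. Fold changes below are KO minus WT on the log2(FPKM + 1) scale, which understates changes of low genes, and p-values are unadjusted unless said otherwise. Of the 9 members, 8 had a negative fold change, against 50.8% of all genes, and the members' median was −0.36 against −0.01 over all genes.

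Among the genes for the basic and structural proteins of compact myelin, *Mobp* differed most. *Mobp*, encoding a basic protein of the compact layers, lies at chr9:120149707-120181484 (mm10, plus strand). *Mobp* overlaps the processed transcript *Gm38642* on the same strand, which the use of strand could not separate, so reads of the pair may be mixed. It was at 17.6, 12.5 and 18.2 FPKM in the WT libraries and at 8.04, 7.73 and 4.77 FPKM in the KO libraries. Every KO library was below every WT library, as for 5.7% of all genes (5.37% had every KO library above every WT library), and the KO mean was 42.6% of the WT mean (16.1 ± 3.13 against 6.85 ± 1.8 FPKM, SD, n = 3). The log2 fold change was −1.13 (SE 0.26, 95% interval −1.70 to −0.56, limma p = 0.00129, adjusted p = 0.841), and the exact permutation p was 0.1, the smallest that 3 mice against 3 allow. Without each library in turn it ranged from −1.29 to −0.92 and stayed past an unadjusted limma threshold of 0.05.

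*Mbp*, whose protein joins the inner faces of the myelin membrane, lies at chr18:82475146-82585637 (plus strand). It was at 88.9, 74.1 and 91.8 FPKM in WT and at 80.4, 75.1 and 42.3 FPKM in KO libraries. Only KO 3 was below the WT range, and KO 1 and KO 2 were within it. The log2 fold change was −0.41 (SE 0.26, 95% interval −0.99 to 0.17, limma p = 0.149, adjusted p = 0.849, exact permutation p = 0.3), and without KO 3 it was −0.12. *Cldn11*, a claudin that forms tight junctions between myelin layers, lies at chr3:31149920-31164324 (plus strand). Its levels were 169, 151 and 128 FPKM in WT and 125, 158 and 103 FPKM in KO libraries, with groups that overlapped (log2 fold change −0.22, SE 0.23, 95% interval −0.73 to 0.29, limma p = 0.35, adjusted p = 0.919, exact permutation p = 0.4). It was −0.38 without KO 2, −0.08 without KO 3 and −0.05 relative to the endothelial markers. *Mal*, a membrane raft protein that sorts cargo to myelin and to the apical side of epithelia, lies at chr2:127633226-127656695 (minus strand). It was at 42.4, 17.7 and 16.6 FPKM in WT and at 27.1, 14.5 and 18.2 FPKM in KO libraries, with WT 1 above the other 5. Its log2 fold change of −0.26 (SE 0.36, 95% interval −1.06 to 0.54, limma p = 0.488, adjusted p = 0.945, exact permutation p = 0.7) rested on WT 1 and was 0.16 without it.

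Among the proteins of the non-compact and outer myelin, *Cnp* and *Mag* were lower before adjustment and *Mog* was not. *Cnp*, encoding a cyclic nucleotide phosphodiesterase of non-compact myelin, lies at chr11:100574904-100591729 (plus strand). It was at 57.1, 46.2 and 67.4 FPKM in WT and at 38.7, 33.8 and 36.7 FPKM in KO libraries. All KO libraries were below all WT libraries, at 64% of the WT mean (56.9 ± 10.6 against 36.4 ± 2.43 FPKM, SD, n = 3). The log2 fold change was −0.61 (SE 0.20, 95% interval −1.07 to −0.16, limma p = 0.0127, adjusted p = 0.841, exact permutation p = 0.1), and without WT 3 it was −0.49 and no longer past the unadjusted threshold. *Cnp* overlaps *Dnajc7* on the opposite strand, and whether strand was used in counting was not stated, so reads of the pair may be mixed. *Mbp*, *Mog* and *Olig1* likewise overlap a pseudogene or noncoding gene on the opposite strand. *Dnajc7* itself was at 53.5, 50.2 and 72.1 FPKM in WT and at 73.2, 45 and 65.1 FPKM in KO libraries (log2 fold change 0.05, limma p = 0.845, exact permutation p = 0.9).

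*Mag*, an adhesion molecule of the membrane facing the axon, lies at chr7:30899176-30914873 (minus strand). It was at 27, 18.5 and 30 FPKM in WT and at 19.4, 16.6 and 7.32 FPKM in KO libraries. The groups overlapped, since KO 1 was above WT 2, and KO 3 was lowest. The KO mean was 57.3% of the WT mean (25.2 ± 5.96 against 14.4 ± 6.31 FPKM, SD, n = 3), with a log2 fold change of −0.84 (SE 0.34, 95% interval −1.59 to −0.09, limma p = 0.0324, adjusted p = 0.841, exact permutation p = 0.2). The call ended without WT 1 (log2 fold change −0.77), without WT 3 (−0.70) and without KO 3 (−0.44). It also ended when the trend on GC content was removed from each library (log2 fold change −0.69).

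*Mog*, on the outermost myelin surface and at chr17:37010743-37023398 (minus strand), was the only member with a positive fold change. Its levels were 4.5, 2.28 and 1.6 FPKM in WT and 10.2, 5.97 and 0.986 FPKM in KO libraries, or about 19.6 to 137 estimated fragments per library. KO 1 and KO 2 were above all WT libraries and KO 3 below them. The log2 fold change was 0.57 (SE 0.57, 95% interval −0.70 to 1.84, limma p = 0.338, adjusted p = 0.919, exact permutation p = 0.6). Without KO 3 it was 1.29 and past the unadjusted limma threshold of 0.05, and without KO 1 it was 0.05, so its value depended on single libraries.

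*Ugt8a*, the enzyme that makes the galactolipid of myelin, lies at chr3:125865271-125938619 (minus strand). It was at 2.2, 2.57 and 4.1 FPKM in WT and at 2.71, 3.7 and 0.573 FPKM in KO libraries. KO 3 was far below the other 5 libraries, and the log2 fold change of −0.36 (SE 0.43, 95% interval −1.32 to 0.60, limma p = 0.422, adjusted p = 0.932, exact permutation p = 0.7) became 0.11 without it. *Olig1*, a bHLH factor of the oligodendrocyte lineage, is a single-exon gene at chr16:91269772-91271933 (plus strand). It was at 13.7, 22.9 and 26.3 FPKM in WT and at 17, 14.3 and 17.1 FPKM in KO libraries. The lowest library was WT 1, and the KO libraries lay close together. Its log2 fold change was −0.32 (SE 0.26, 95% interval −0.89 to 0.25, limma p = 0.243, adjusted p = 0.882, exact permutation p = 0.4), and single libraries moved it both ways, to −0.58 without WT 1, past the unadjusted threshold, and to −0.14 without WT 3. With the GC trend removed from each library it was −0.13.

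**Figure D2:**
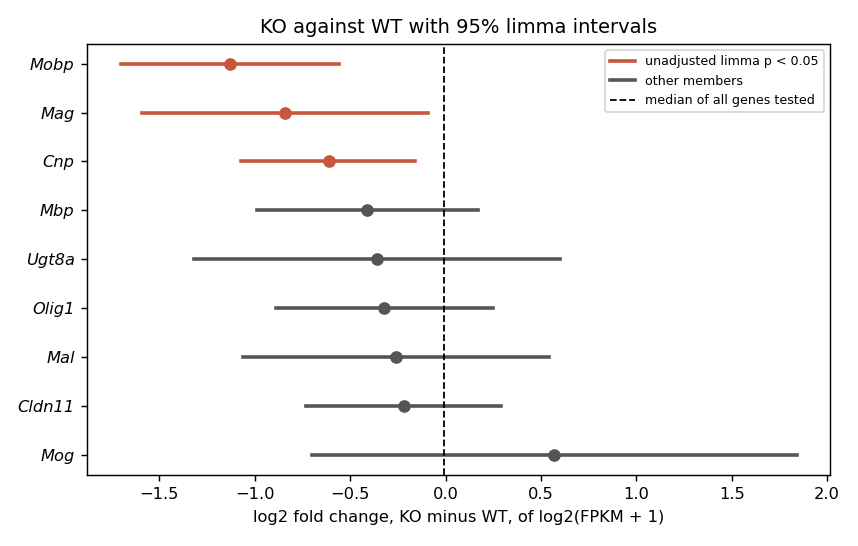
Log2 fold change of each member, KO minus WT, of log2(FPKM + 1), with 95% limma intervals and a dashed line at the median of all genes tested. The intervals of *Mobp*, *Mag* and *Cnp* lie below 0 before adjustment, and that of *Mog* is the widest.

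Agreement among the members by library was partial. Each member was centred on its own mean of log2(FPKM + 1) over the 6 libraries. KO 3 was below the mean for 9 of 9 members, with an average of −0.69, and it was the lowest library for 6 of them, *Mbp*, *Mog*, *Mag*, *Mobp*, *Cldn11* and *Ugt8a*. WT 3 was the highest library for 6 members, with an average of 0.25, and WT 1 averaged 0.33. The averages of WT 2, KO 1 and KO 2 were 0.02, 0.14 and −0.04, so KO 1 lay within the WT range and KO 2 just below it. The place of KO 1 rested on *Mog*: without that gene the averages were 0.33, 0.07 and 0.37 in the WT and −0.01, −0.13 and −0.63 in the KO libraries, a choice made after the values were seen. The SD over members within a library was 0.23 to 0.53, and *Mog* was the member farthest from the others. In KO 1, *Mog* stood at 1.35 while *Mobp* stood at −0.33, and in WT 3 *Mog* stood at −0.76 while *Mobp* stood at 0.75.

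The summed level of the 9 members was 422, 348 and 384 FPKM in WT and 329, 330 and 231 FPKM in KO libraries. All KO sums were below the WT sums. *Cldn11* supplied the largest share, and without it the sums were 253, 197 and 256 FPKM in WT and 203, 172 and 128 FPKM in KO libraries, so that KO 1 was above WT 2 and the groups overlapped.

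**Figure D3:**
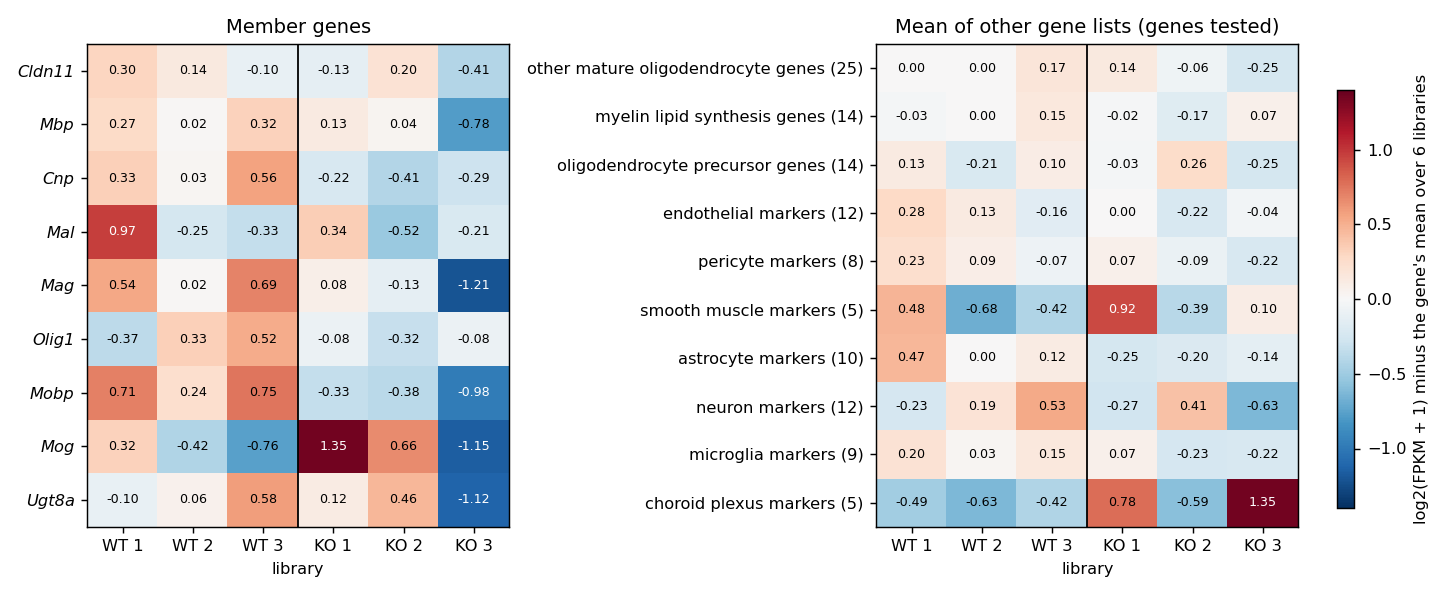
Heat maps of log2(FPKM + 1) minus each gene's mean over the 6 libraries, for each member on the left and averaged over the tested genes of 10 other lists on the right, with red above and blue below the mean. KO 3 is below 0 for all 9 members, *Mog* is high in KO 1 and KO 2, and the choroid plexus markers are high in KO 1 (0.78) and KO 3 (1.35).

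Other genes of the lineage were read from lists. Of 30 other genes of mature oligodendrocytes, 25 were tested, 12 with a negative and 13 with a positive fold change, and their median was 0.00. *Lpar1*, a lysophosphatidic acid receptor, was the only 1 of them called, at 42.3, 40.1 and 30.7 FPKM in WT and 27.3, 25.2 and 26.2 FPKM in KO libraries (log2 fold change −0.50, SE 0.20, limma p = 0.0309, exact permutation p = 0.1), and this call ended without WT 1, WT 2, KO 1 or KO 3 and relative to the endothelial markers (−0.33). Its log2 fold change stayed between −0.63 and −0.41 with single libraries left out, and it was still called after removal of the GC trend (−0.56). The most abundant were *Apod*, an apolipoprotein also made by vessel-associated cells (log2 fold change −0.51, limma p = 0.106, exact permutation p = 0.3), *Cryab*, *Cd9* and *Sirt2*. *Apod* was at −0.83 without WT 3, past the unadjusted threshold, and at −0.31 without WT 1. Defining markers of the mature cell were uneven in level: *Trf*, *Tspan2* and *Bcas1* averaged 50.6, 14.2 and 13 FPKM over the libraries, *Opalin* averaged 1.16 FPKM and was listed at 0 in WT 1 and at 3.4 FPKM in WT 3, and *Ermn* and *Hapln2* averaged 0.387 and 0.261 FPKM.

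In the list of myelin lipid genes, 8 of 14 had a negative and 6 a positive fold change, with a median of −0.13. Not all of these are enzymes of synthesis, since *Smpd1* is a sphingomyelinase. *Elovl7*, a fatty acid elongase, was called higher before adjustment, at 15.4, 12.5 and 12.7 FPKM in WT and 28.1, 14.5 and 37.1 FPKM in KO libraries (log2 fold change 0.83, SE 0.31, limma p = 0.0221, exact permutation p = 0.2), and it was highest in KO 1 and KO 3. This call ended without WT 2, WT 3, KO 1 or KO 3 (log2 fold change 0.55 without KO 3) and when the trend on GC content was removed from each library (0.70). *Hmgcs1*, an enzyme of cholesterol synthesis, differed by 0.25 on the log2 scale (limma p = 0.25, exact permutation p = 0.3). Among 14 tested genes of oligodendrocyte precursors, 7 had a negative and 7 a positive fold change, with a median of 0.05. *C1ql1* was called, at 16.9, 13.6 and 9.95 FPKM in WT and 5.03, 8.17 and 7.28 FPKM in KO libraries (log2 fold change −0.88, SE 0.26, limma p = 0.00724, exact permutation p = 0.1). *Pdgfra*, the growth factor receptor of precursors, was not called (log2 fold change −0.32, limma p = 0.235, exact permutation p = 0.3), with −0.12 without WT 1 and −0.50 without KO 3. Of 6 genes of Schwann cells, which make peripheral myelin, 3 were tested and 0 were called by limma at an unadjusted or adjusted p under 0.05. Their summed level was 59.7 to 89.8 FPKM over the libraries, most of it *Pmp22*, a myelin protein gene that other cells also express, at a mean of 67.8 FPKM, while *Pmp2* was listed at 0 in 5 libraries.

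Markers of other brain cells also had mostly negative fold changes. Of 10 astrocyte markers, 10 had a negative fold change and 4 were called lower (*Gfap*, *Gja1*, *Agt* and *Gjb6*), with a median of −0.35 and sums of 827 to 1001 FPKM in WT and 618 to 651 FPKM in KO libraries. Neuron markers had a median of −0.31, with 10 of 12 negative and 3 called (*Slc17a7*, *Thy1* and *Syn1*), and sums of 379 to 652 FPKM in WT and 271 to 547 FPKM in KO libraries. Microglia markers had a median of −0.37, with 8 of 9 negative and *C1qa* called, and sums of 291 to 338 FPKM in WT and 222 to 279 FPKM in KO libraries. Endothelial markers had a median of −0.13 with 8 of 12 negative and *Cdh5*, the cadherin of endothelial junctions, called lower. Pericyte markers had a median of −0.16 with 6 of 8 negative and *Anpep* called lower, smooth muscle markers 0.39 with 0 of 5 negative, and choroid plexus markers 1.00 with *Kl* and *Kcne2* of 5 called higher.

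Single libraries moved these medians. Leaving out each library in turn, the median ranged from −0.53 to −0.22 for the members (highest without KO 3), from −0.51 to −0.21 for astrocyte (highest without WT 1), from −0.58 to −0.11 for neuron (highest without WT 3) and from −0.45 to −0.22 for microglia markers (highest without KO 2). It ranged from −0.25 to −0.06 for endothelial (highest without WT 1), from −0.27 to −0.07 for pericyte (highest without KO 3), from −0.01 to 0.77 for smooth muscle (lowest without KO 1) and from 0.59 to 1.66 for choroid plexus markers (lowest without KO 3). For the other oligodendrocyte lists it ranged from −0.14 to 0.04 (mature), from −0.17 to −0.08 (myelin lipid) and from −0.11 to 0.30 (precursor). No astrocyte marker was called without WT 1 or WT 2, although without WT 2 the median was −0.51. No neuron marker was called lower without WT 2, when the median was −0.40, without WT 3 or without KO 3. No microglia marker was called without WT 1 or WT 2, although the medians there were −0.38 and −0.36. *Anpep* was called in no comparison without 1 library except that without WT 3, and no choroid plexus marker was called without KO 1 or KO 3. With the GC trend removed from each library, *Gfap* (log2 fold change −0.42), *Agt* (−0.68), *Thy1* (−0.61), *Syn1* (−0.65), *C1qa* (−0.44) and *Anpep* (−0.40) were no longer called. Relative to the endothelial markers the calls of *Gfap* (log2 fold change −0.35), *Gja1* (−0.32), *Gjb6* (−0.43), *Slc17a7* (−0.69), *Thy1* (−0.55), *Syn1* (−0.63), *C1qa* (−0.45) and *Anpep* (−0.29) ended. That centring also moved the median of all genes from −0.01 to 0.16.

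Like the members, several lists were lowest in KO 3. The average centred value there was −0.25 for the other mature oligodendrocyte genes, which were highest in WT 3 (0.17), −0.25 for the precursor genes, −0.22 for the pericyte markers and −0.63 for the neuron markers. The neuron markers differed from the members in WT 1, where they averaged −0.23 and the members 0.33, and in KO 2, where they averaged 0.41 and the members −0.04. The part of these other cell types and of the choroid plexus RNA in KO 1 and KO 3 in the members' values was not tested. With the trends on transcript length and GC content removed from each library, the members' median was −0.35, *Mobp* was at −1.05 and *Cnp* at −0.52, both past the unadjusted limma threshold of 0.05, and *Mag* was at −0.68 and not past it. Relative to the mean of the endothelial markers in each library, *Mobp* had a log2 fold change of −0.96, past the unadjusted limma threshold of 0.05, and *Cnp* had −0.44, which was not past it.

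**Figure D4:**
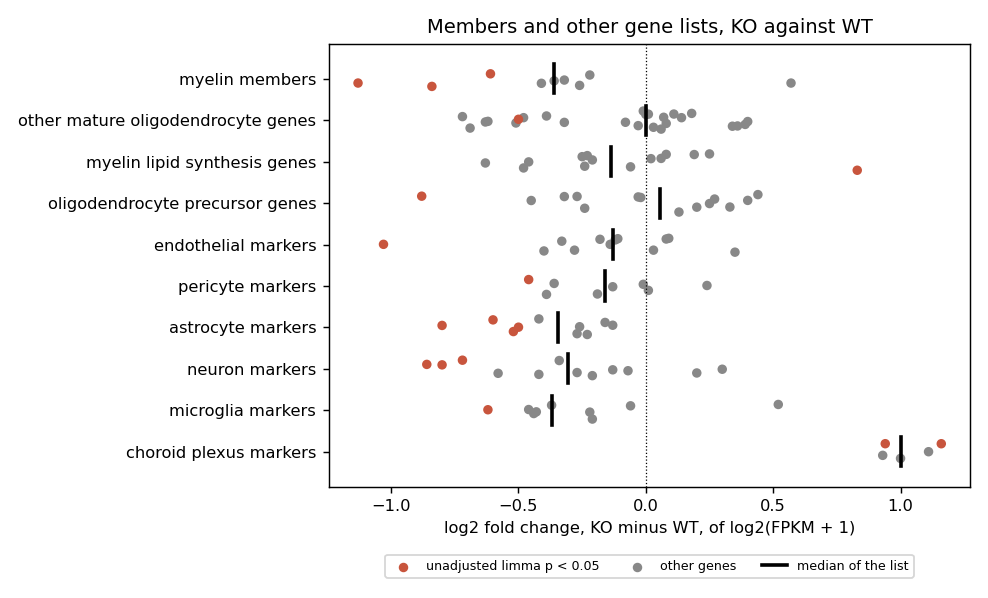
Log2 fold change, KO minus WT, of log2(FPKM + 1) for every tested gene of the members and of 9 other lists, with the list's median as a bar and genes at an unadjusted limma p under 0.05 in red. The members' median of −0.36 lies near those of the astrocyte (−0.35), neuron (−0.31) and microglia (−0.37) markers, and the median of the other mature oligodendrocyte genes is 0.00.

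Genes that are no members were compared with the mean centred profile of the 9 members over the 6 libraries. The 20 nearest of 9952 genes that averaged 5 FPKM or more lay within a root mean square log2 difference of 0.155, against a median of 0.44 over all. The nearest were *Gpt2*, a mitochondrial alanine transaminase, at 0.062, *Nop10* at 0.086, *Lrig1* at 0.114 and *Srsf4* at 0.122. Of 36 genes from the other oligodendrocyte, precursor and lipid lists, 0 were among the 20 and 6 were in the nearest 10%. Of the members themselves, *Mbp* lay at 0.06 from the mean profile and *Mog* at 0.75.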

How the data were processed

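Brain microvessel RNA of 6 mice was measured, with 1 library per mouse and 3 mice in each group, taken from the genotype label. Microvessels were isolated by centrifugation in dextran and collected on a strainer. TRIzol was used for extraction, a directional NEBNext kit for the libraries, and a HiSeq instrument for paired-end sequencing. The authors trimmed the reads, mapped them with TopHat and deposited FPKM values per gene symbol; mm10 is named in the submitters' processing notes, and the annotation, the use of strand in counting and any scaling between libraries were not given in the sources used here. The file headers carry other mouse numbers than the sample titles, and the titles were used. FPKM corrects for depth and length, so a change in very abundant transcripts shifts all other values.

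From these files, log2(FPKM + 1) was tested with limma 3.58.1 in R 4.3.3 (trended prior variance, Benjamini-Hochberg adjustment) for genes averaging 1 FPKM or more. Single genes were tested in addition by an exact permutation test (two-sided). Other steps used Python 3.11.15 with pandas 2.3.3, numpy 2.4.6 and scipy 1.17.1. No scaling between libraries was added. The fit was tested on simulated data in which noise was drawn independently for each gene and library. The trends on length and GC content were not simulated, so the simulation says nothing on p-values under such trends. Depth was estimated from the spacing of low FPKM values, with lengths of 2246 genes that have a single annotated transcript. Gene positions came from the GENCODE annotation of GRCm38, the assembly of mm10. Promoter sequences came from RefSeq for 7 of 9 members. No window was found for *Olig1*, and none was used for *Mbp* by choice.

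The members and lists were chosen with earlier results of these data known. All members are named, with *Gadd45gip1*, genes of the lists that were called, some of the 4 most abundant of a list, and up to 8 of the genes nearest to the members' profile. *Trf*, *Tspan2*, *Bcas1*, *Opalin*, *Ermn*, *Hapln2*, *Pmp2* and *Dnajc7* were named outside this rule, after their values were seen. The lists cover other mature oligodendrocyte, myelin lipid, precursor and Schwann cell genes and markers of endothelial cells, pericytes, smooth muscle, astrocytes, neurons, microglia, choroid plexus and erythroid cells. A gene of the lists that was examined is not reported here, and the counts over its list include it. Of 5 erythroid markers in the files, 4 had a negative fold change and *Hbb-bs*, whose reads may be shared with near-identical copies, was called lower, with 0, 126 and 10.6 FPKM in WT and a listing at 0 in all KO libraries, and of the comparisons without 1 library it was called in the one without WT 1 alone (median log2 fold change of the list −0.28, or between −0.61 and −0.09 when 1 library was dropped). Alternatives were other filters, pseudocounts, scalings, corrections for GC content and length, limma with a replicate block or with no variance trend, and leaving out each library.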

Additional observations from a re-analysis of the deposited data

How the results depend on the processing

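The members' median log2 fold change was between −0.53 and −0.19 over 18 alternatives, of which the one setting FPKM totals equal was chosen after seeing the data. *Mobp* stayed negative and past an unadjusted p of 0.05 in all 18, *Cnp* in 16 and *Mag* in 11. The number of members called was 1 when libraries were centred on the endothelial markers and 1 to 3 when a library was left out (1 without WT 3). Without KO 3 the 3 called were *Mobp*, *Cnp* and *Mog*, the last higher in KO mice. Endothelial centring moved the median of all genes to 0.16, the members' to −0.19, and the share of called genes that were higher from 47.1% to 88.5% (785 higher and 102 lower). Without a filter 1 gene passed after adjustment, and 0 to 4 did when a library was left out. Genes at an unadjusted p under 0.05 numbered 450 (without WT 2) to 1871 (without KO 2), and 510 without KO 1. *Mal* ranged from −0.49 to 0.16 (without WT 1) and *Ugt8a* from −0.68 to 0.11 (without KO 3), and so changed sign. The cause of these changes was not tested. With a mean of at least 5 FPKM *Mog* and *Ugt8a* were not tested. With the replicate block, 3 members and 871 genes were called, and the smallest adjusted limma p was 0.0507. Same-numbered libraries correlated at 0.0016 to 0.0375 in their deviations and other pairs at −0.0733 to 0.0462. Correlations of deviations within groups of 3 cannot decide whether the numbers pair the libraries. At the estimated depths, *Mog* and *Ugt8a* rested on few fragments in KO 3, 19.6 and 25.2.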

Other observations

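The longest annotated transcripts of the members had a median length of 2.78 kb and a median GC content of 51%, against 3.39 kb and 50% for the 13726 tested genes with an annotation. *Ugt8a* had the lowest GC content of the members, at 38.0%, and *Olig1* the highest, at 61.1%. The promoter window of *Ugt8a* had a GC content of 76.8% and 32 CpG dinucleotides, and that of *Mog* 46.8% and 2, against medians of 52.4% and 6 over all windows.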
